A study of Mus musculus with 6 samples.

Results

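The 10 genes described here encode enzymes that build, lengthen and desaturate fatty acids: the citrate lyase gene Acly, the acetyl-CoA carboxylase genes Acaca and Acacb, the fatty acid synthase gene Fasn, the elongase genes Elovl1, Elovl5 and Elovl6, and the desaturase genes Scd1, Scd2 and Fads1. They were chosen by name, with earlier results of these data known, and all 10 were found by their NCBI gene number among the 24885 rows of the count table. Transcripts had been counted by 3' RNA-seq in mouse Eµ-Myc B-cell lymphoma cells, in which an immunoglobulin enhancer directs a Myc transgene to the B lineage. Both groups carried, per the labels, the Eμ-Myc transgene, the tamoxifen-activated recombinase Cre-ERT2 and the miR-17~92 microRNA cluster as a floxed allele pair (fl/fl). The fl group (genotype floxed, 3 libraries) kept the cluster. The del group (genotype del17-92, 3 libraries) came from cells that had been given 250 nM 4-hydroxytamoxifen (4-OHT) for 4 days and then subcloned to obtain cells lacking the cluster. Cells of both groups were grown for 48 hours on irradiated Ink4a-null mouse embryo fibroblasts before RNA was taken. How many clones the del libraries represent, and whether libraries of a group were separate cultures, is not said. The p-values therefore rest on variation among these libraries that may be technical, and loss of the cluster, 4-OHT and subcloning cannot be told apart.

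As background, cells make fatty acids from citrate that leaves the mitochondrion. ATP citrate lyase splits it into acetyl-CoA, acetyl-CoA carboxylase turns acetyl-CoA into malonyl-CoA, and fatty acid synthase joins these units into palmitate at the expense of NADPH. Elongases lengthen the chain in the endoplasmic reticulum and desaturases add double bonds, which sets how fluid membranes are. Transcription of these genes is driven by the sterol regulatory element binding proteins (SREBPs), and dividing lymphoma cells use the products for new membrane.

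The study's title names tumour metabolism, and the comparison asks how transcript levels differ once the cluster is gone. MicroRNAs pair with target transcripts mainly through the seed, bases 2 to 8 of the mature RNA. The mature sequences of the cluster, from RefSeq (GRCm38.p6, chromosome 14), are given because they define which of the 10 transcripts could pair with it. Capitals mark the seed, and miR-17 and miR-20a share 1 seed, as do miR-19a and miR-19b.
mmu-miR-17-5p: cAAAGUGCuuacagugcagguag
mmu-miR-20a-5p: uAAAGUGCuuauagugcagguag
mmu-miR-18a-5p: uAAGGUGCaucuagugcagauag
mmu-miR-19a-3p: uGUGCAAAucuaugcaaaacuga
mmu-miR-19b-3p: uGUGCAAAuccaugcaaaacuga
mmu-miR-92a-3p: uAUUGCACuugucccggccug

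Of the 10 transcripts, 6 held 1 perfect 7-base match to a seed in the longest annotated 3' untranslated region, and 4 (Acly, Acaca, Fasn and Fads1) held none. The sites are given with 10 bases on either side, 5' to 3' on the transcript strand, in the genome build GRCm38, with the match in capitals.
Acacb, miR-19a and miR-19b site, chr5:114249943-114249969, + strand: accacgttggTTTGCACtcagctcctt
Scd1, miR-19a and miR-19b site, chr19:44397654-44397680, - strand: catatacaatTTTGCACaacagcttta
Scd2, miR-18a site, chr19:44304853-44304879, + strand: tgtggtcctgGCACCTTcctcactcag
Elovl1, miR-18a site, chr4:118432152-118432178, + strand: cctcaggactGCACCTTgggcagcatc
Elovl5, miR-19a and miR-19b site, chr9:77984224-77984250, + strand: atgctttaatTTTGCACattcatatta
Elovl6, miR-17 and miR-20a site, chr3:129635991-129636017, + strand: tgcttccaaaGCACTTTagtctcagtg

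The letters searched were GCACTTT for miR-17 and miR-20a, GCACCTT for miR-18a, TTTGCAC for miR-19 and GTGCAAT for miR-92a, on the transcript strand alone. Among 9825 tested genes with an annotated 3' untranslated region, 14.7%, 9.12%, 13.4% and 7.65% held them, and 33.7% held at least 1. Long regions hold more: among regions within 25% of its length, at least 1 match was present in 74.5% for Elovl6, 63.5% for Scd2, 61.7% for Scd1, 39.7% for Elovl5, 29.2% for Acacb and 23.2% for Elovl1. For the 4 genes that held none, the share was 43.9% for Fasn, 43.1% for Acaca, 42.9% for Fads1 and 23.9% for Acly. A match is a description of the letters and not a site shown to be used.

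The libraries differed in depth and in cell type markers along with the groups. The fl totals ran from 6554423 to 9580630 counts and the del totals from 2121796 to 3738720. Mir17hg, the host transcript of the cluster, stood at 252, 263 and 262 CPM (counts scaled to a common library size with TMM factors) in fl against 167, 152 and 206 CPM in del. Its annotated 3' end lies past the microRNAs, so these counts do not check the deletion. The 17 B cell markers summed to 123 to 155.9 CPM in fl against 1711 to 1909 CPM in del (15 tested, 15 higher). Some of them, such as Ebf1 at 0.263 CPM and Fcrla at 0.622 CPM in fl, passed the filter on low counts through del alone, so their direction was fixed. In fl the defining gene Pax5 averaged 2.98 CPM, little for cells labelled B-cell lymphoma, and Ms4a1 averaged 0.0977 CPM in fl against 0.0901 CPM in del. The 11 myeloid markers summed to 302.5 to 309.9 CPM in fl against 2536 to 3338 CPM in del (6 of 9 tested higher, 3 lower, Mpo at 0). Some of these, such as Lyz2 at 0.371 CPM and Cybb at 1.97 CPM in fl, also passed that filter through del alone, so their direction was fixed. Fcgr3, the largest part of the fl sum, fell from 244 to 81.3 CPM. The 11 epithelial and hepatic markers summed to 562.1 to 589.9 CPM in fl against 1.84 to 2.16 CPM in del (5 tested, 5 lower, with Cdh1, Cldn7 and Alb at 0). Those 5 passed that filter through fl alone and could only be tested as lower. The 16 fibroblast markers, which feeder cells carry, summed to 3587 to 4036 CPM in fl against 2561 to 2745 CPM in del (of 6 tested 3 higher and 1 lower), mostly from S100a4 and Vim. The 3 risers, at low levels, were Sparc (1.61 CPM in fl, 10.5 CPM in del), Acta2 (0.831 CPM in fl, 3.46 CPM in del) and Fn1 (1.13 CPM in fl, 3.48 CPM in del). These 3 passed that filter through del alone and could only be tested as higher. Of the collagen genes Col1a2 averaged 1.05 CPM in fl and 4.31 CPM in del without a call, and Lum was at 0. The 8 T and NK cell markers summed to 36.9 to 41.6 CPM in fl against 99.0 to 119.8 CPM in del (of 3 tested 1 higher and 2 lower, with Cd3e, Cd8a and Nkg7 at 0). Most of the del sum was the riser Cd2 (13.1 CPM in fl, 104.7 CPM in del). The fallers were Cd5 (23.3 CPM in fl, 3.30 CPM in del) and Lck (3.24 CPM in fl, 0 in del), and Lck passed that filter through fl alone. The part of these cell types in the differences between the groups was not tested. The 7 adipocyte markers summed to at most 0.803 CPM in any library, with Plin1, Lep and Cfd at 0. In such bulk samples, fewer cells of a type and less RNA per cell cannot be told apart.

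Of the 10 genes 5 were lower in del, 1 was higher and 4 did not pass the test. Fads1, Scd1 and Scd2, all 3 desaturase genes of the set, fell by 1.40 ± 0.14, 1.16 ± 0.17 and 0.86 ± 0.17 on the log2 scale (± standard error, SE), the carboxylase gene Acacb went to 0 counts, and Elovl1 fell by a smaller amount. Fasn, at the centre of the pathway, rose by 0.73 ± 0.14. Acly, Acaca, Elovl5 and Elovl6 did not pass the threshold. The test is edgeR's quasi-likelihood F test with Benjamini-Hochberg adjustment over the 10260 genes tested and a threshold of 0.05, and each adjusted p below comes from it. Fold changes are del over fl.

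These counts stand against a background in which most of the transcriptome differed. Of all genes tested 65.1% were called, 32.5% higher and 32.6% lower in del, and the 3 values of fl and the 3 of del did not overlap for 69.9%. Among the 10 genes they did not overlap for 8, of which 5 were lower and 3 higher in del. The median log2 fold change was -0.18 over the 10 and -0.00 over all genes tested. The share of the 10 that was called is thus near the share of all genes.

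**Figure D1:**
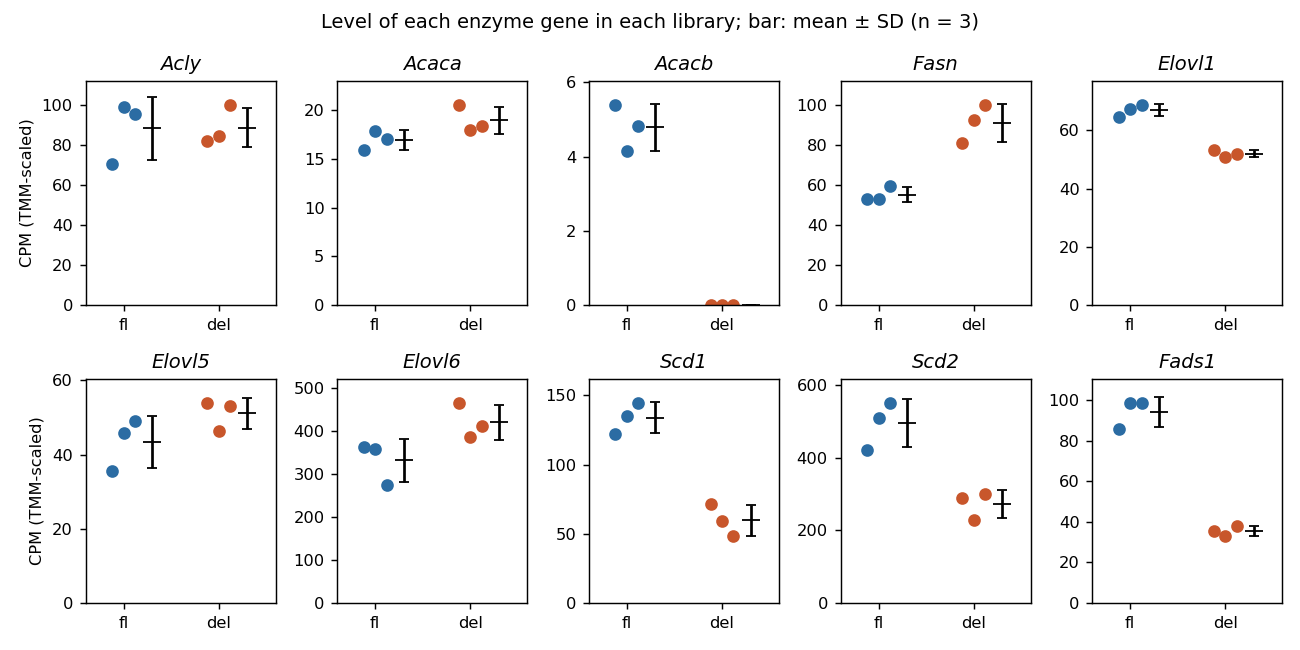
Level of each of the 10 enzyme genes in CPM (vertical axes, from 0) in each fl and del library (points), with the mean and SD of 3 libraries as a bar beside them. Scd1, Scd2, Fads1, Elovl1 and Acacb lie lower in every del library than in any fl library, and Fasn lies higher.

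Acly (NCBI gene number 104112, here and below with the annotated locus in GRCm38: chromosome 11, 100476352 to 100528000), which makes cytosolic acetyl-CoA from citrate, was at 70.4, 99.1 and 95.4 CPM in fl against 81.9, 84.3 and 100.02 CPM in del. The del values lay within or just above the fl range. Its log2 fold change was 0.01 ± 0.17 (adjusted p = 0.968), and the sign differed between settings.

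Of the acetyl-CoA carboxylase genes, Acacb was called and Acaca was not. Acaca (gene number 107476, chromosome 11, 84129635 to 84401651) encodes the cytosolic enzyme that supplies malonyl-CoA for synthesis. It was at 15.9, 17.9 and 17.01 CPM in fl against 20.5, 18.0 and 18.4 CPM in del, groups that just failed to overlap, with a log2 fold change of 0.17 ± 0.14 (adjusted p = 0.314). After correction of each library for its trend on transcript length and GC content, Acaca was called lower instead (-0.84 ± 0.16, adjusted p = 0.00137). Acacb (gene number 100705, chromosome 5, 114146321 to 114250761) encodes the enzyme at the mitochondrial surface, whose malonyl-CoA restrains entry of fatty acids into mitochondria. It had 47, 37 and 33 counts in fl, or 5.39, 4.14 and 4.84 CPM, and 0 counts in each del library. Set against a floor of 3 counts over the del group, it was at least 15.3-fold lower in del (adjusted p = 0.000142). Acacb passed the filter on low counts through the fl group alone, so it could only be tested as lower.

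Fasn (gene number 14104, chromosome 11, 120805958 to 120825166), the multidomain enzyme that assembles palmitate, was at 52.9, 53.04 and 59.5 CPM in fl against 81.1, 92.4 and 100.02 CPM in del. Every del library was above every fl library. The log2 fold change was 0.73 ± 0.14 (adjusted p = 0.00129), a 1.65-fold higher level. Over edgeR's other scalings and DESeq2 it lay between 0.60 and 0.74. The rise was lost when each library's trend on transcript length and GC content was removed (log2 fold change -0.13 ± 0.14, adjusted p = 0.432). Fold changes rose with annotated transcript length across all genes, from a median of -0.67 in the fifth with the shortest transcripts to 0.80 in the fifth with the longest, and the longest annotated Fasn transcript has 10050 bases.

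Of the elongase genes, Elovl1 was called and Elovl5 and Elovl6 were not. Elovl6 (gene number 170439, chromosome 3, 129532386 to 129638495), which takes palmitate to stearate, was at 362, 357 and 273 CPM in fl against 465, 385 and 409.8 CPM in del. Each del value was above each fl value, yet with a log2 fold change of 0.34 ± 0.16 it missed the threshold (adjusted p = 0.0852), and its sign turned after the same correction for length and GC content (-0.36, adjusted p = 0.0659). Elovl5 (gene number 68801, chromosome 9, 77917365 to 77984519), which lengthens polyunsaturated chains, was at 35.5, 45.9 and 49.0 CPM in fl against 54.0, 46.4 and 53.0 CPM in del. Its groups overlapped (log2 fold change 0.24 ± 0.16, adjusted p = 0.206).

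Elovl1 (gene number 54325, chromosome 4, 118426874 to 118432953), an elongase of very long chains used in sphingolipids, was at 64.6, 67.4 and 68.6 CPM in fl against 53.2, 50.7 and 51.9 CPM in del. The groups were tight and apart, and the gene fell by 0.36 ± 0.12 on the log2 scale (adjusted p = 0.0243). Leaving out fl replicate 2 (adjusted p = 0.0721), fl replicate 3 (0.073) or del replicate 2 (0.0554) ended the call, as did a block on replicate number (0.056) and removal of the length and GC trend (log2 fold change 0.02 ± 0.13, adjusted p = 0.883). The annotated 3' end of Elovl1 overlaps that of Cdc20, a mitotic gene on the opposite strand, by 53 bases, and Cdc20 averaged 515 CPM in fl against 174.0 CPM in del. The libraries were strand-specific per the labels. The strand setting of the counting was not given in the sources used here, so reads of the 2 genes in that overlap may not be told apart.

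Each desaturase gene of the set was lower in del. Scd1 (gene number 20249, chromosome 19, 44394450 to 44407709) and Scd2 (gene number 20250, chromosome 19, 44293676 to 44306864) are neighbouring genes for stearoyl-CoA desaturases, which make oleate and palmitoleate. Scd1 was at 122, 135 and 145 CPM in fl against 71.4, 59.2 and 48.7 CPM in del. All del libraries were below all fl libraries, and the log2 fold change was -1.16 ± 0.17 (adjusted p = 0.000255). Scd2 was at 423, 511 and 552 CPM in fl against 288, 229.8 and 301 CPM in del. Again the groups did not overlap, with a log2 fold change of -0.86 ± 0.17 (adjusted p = 0.00149).

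Fads1 (gene number 76267, chromosome 19, 10182877 to 10196874), a desaturase of polyunsaturated fatty acids that leads to arachidonate, was at 85.9, 98.7 and 98.8 CPM in fl against 35.6, 33.2 and 38.1 CPM in del. The groups did not overlap, and Fads1 stood 2.64-fold lower in del (a log2 difference of -1.40 ± 0.14, adjusted p = 2.62e-05). Scd1, Scd2 and Fads1 kept their calls under all 14 alternative settings, with ranges of -1.67 to -1.03, -1.45 to -0.75 and -1.53 to -1.36 on the log2 scale.

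**Figure D2:**
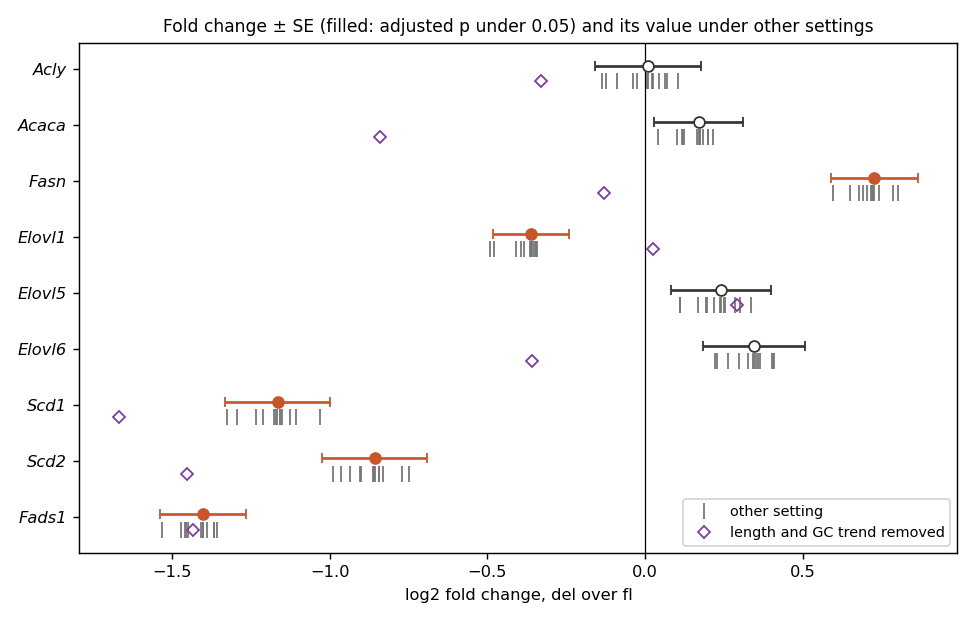
Log2 fold change of del over fl (horizontal axis) for 9 enzyme genes, as a point with its SE, filled where the adjusted p was under 0.05, with the values under 14 other settings as marks beneath (13 ticks and 1 diamond for the setting that removes the trend on length and GC content). Scd1, Scd2 and Fads1 stay on the lower side throughout, whereas the diamond of Fasn is near 0. Acacb is left out because it had 0 counts in del.

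The balance between the stearoyl-CoA desaturases was set apart from the scaling by taking their ratio within each library. Scd1 made up 20.8% to 22.4% of the summed Scd1 and Scd2 counts in fl and 13.9% to 20.5% in del. The log2 ratio of Scd1 to Scd2 averaged -1.88 ± 0.08 (SD, n = 3) in fl and -2.19 ± 0.37 (SD, n = 3) in del, a difference of -0.31 (exact two-sided permutation test, p = 0.1, the smallest p that 3 libraries against 3 can give). Del replicate 3 decided its size, since without it the difference was -0.09. The last 1000 bases of the longest annotated 3' untranslated regions of Scd1 and Scd2 share 0 stretches of 25 bases. Of their paralogs, Scd3 had a mean of 0.124 CPM in fl against 0.248 CPM in del, and Scd4 had 0 counts in all 6 libraries.

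Ratios to Fasn within a library do not depend on the scaling, though they keep any trend on transcript length. They were chosen after the values were seen and are given with no test. Fads1 had 1.62, 1.86 and 1.66 counts for each Fasn count in fl and 0.438, 0.359 and 0.381 in del. Scd1 had 2.31, 2.55 and 2.43 in fl and 0.880, 0.641 and 0.486 in del. Scd2 had 7.996, 9.63 and 9.27 in fl and 3.55, 2.49 and 3.01 in del. In each fl library Scd1 and Fads1 counts exceeded those of Fasn, and in each del library they fell short of them. Acly had 1.33, 1.87 and 1.603 counts for each Fasn count in fl and 1.01, 0.913 and 1.00 in del, and Elovl6 had 6.86, 6.72 and 4.59 in fl and 5.73, 4.17 and 4.10 in del. After correction for length and GC content the fitted log2 fold changes were -1.43 for Fads1, -1.67 for Scd1, -1.45 for Scd2, -0.33 for Acly and -0.13 for Fasn. The distances of Fads1, Scd1, Scd2 and Acly from Fasn were all smaller there than in the reported fit.

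**Figure D3:**
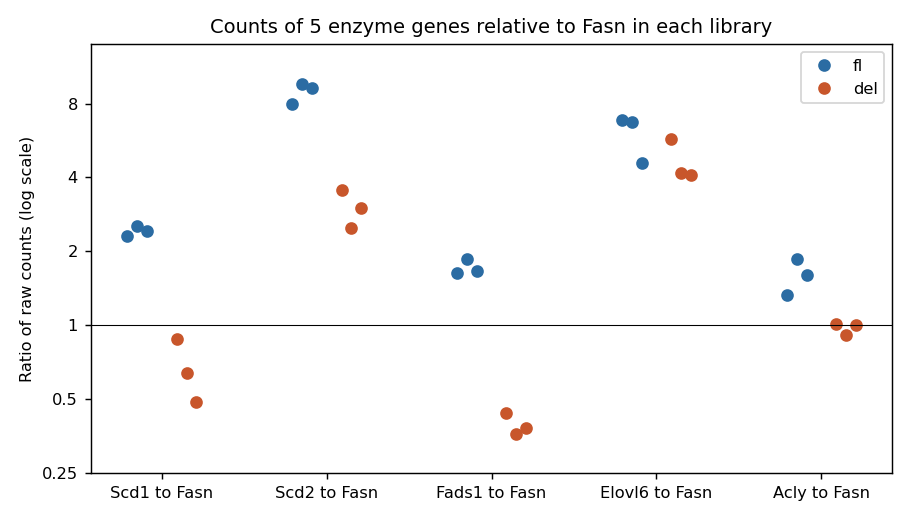
Raw counts of Scd1, Scd2, Fads1, Elovl6 and Acly divided by those of Fasn in each library (vertical axis, log scale; points are fl and del libraries, the line marks a ratio of 1). The 3 desaturases and Acly separate by group, with Scd1 and Fads1 above 1 in fl and below 1 in del, while the Elovl6 ratios overlap. The ratios are not corrected for transcript length.

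Promoters are shown for the called genes that have an entry in the RefSeq promoter table (GRCm38.p6): the riser Fasn and the fallers Elovl1 and Acacb. Each runs from 250 bases before to 50 bases after an annotated start. Of the 10 genes 7 have an entry, and Scd1, Scd2 and Fads1 do not. Capitals mark matches, on either strand, to CACGTG (the E-box bound by MYC and USF factors), TCACNCCAC (a core of the sterol regulatory element), CCAAT (bound by NF-Y) and GGGCGG (bound by SP1).
Fasn, chr11:120824498-120824797, - strand: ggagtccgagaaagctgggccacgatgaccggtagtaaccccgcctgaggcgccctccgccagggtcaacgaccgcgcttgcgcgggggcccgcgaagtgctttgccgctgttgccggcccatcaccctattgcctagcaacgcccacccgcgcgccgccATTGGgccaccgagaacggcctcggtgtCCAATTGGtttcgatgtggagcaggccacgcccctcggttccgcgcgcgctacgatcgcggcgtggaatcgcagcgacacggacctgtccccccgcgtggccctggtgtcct
Elovl1, chr4:118427843-118428142, + strand: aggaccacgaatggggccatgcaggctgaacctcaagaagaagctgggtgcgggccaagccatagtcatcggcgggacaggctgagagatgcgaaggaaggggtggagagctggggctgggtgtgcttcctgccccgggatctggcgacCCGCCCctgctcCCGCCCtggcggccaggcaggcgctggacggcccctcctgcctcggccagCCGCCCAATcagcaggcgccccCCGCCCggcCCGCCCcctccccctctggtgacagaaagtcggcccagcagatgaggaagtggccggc
Acacb, chr5:114165268-114165567, + strand: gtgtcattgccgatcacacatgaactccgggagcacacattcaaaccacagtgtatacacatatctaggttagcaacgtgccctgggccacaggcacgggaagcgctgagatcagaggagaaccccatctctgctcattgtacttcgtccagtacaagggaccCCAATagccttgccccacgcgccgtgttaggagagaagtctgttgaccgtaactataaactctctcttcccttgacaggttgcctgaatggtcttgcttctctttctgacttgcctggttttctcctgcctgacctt

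The Fasn window held 3 CCAAT matches, 1 of them on the forward strand, and in 1 pair the forward and reverse matches overlap. The Elovl1 window held 5 GGGCGG matches and 1 CCAAT match that overlaps 1 of them, and its other annotated start, not shown, held 2 GGGCGG matches. The Acacb window held 1 CCAAT match. The starts used for Fasn, Elovl1, Acacb and Acaca lie inside the annotated gene, and their windows do not reach the beginning of the gene. Of the other windows, that of Acly held 1 CCAAT and 4 GGGCGG matches, that of Elovl5 held 1 CACGTG and 2 CCAAT matches, and those of Acaca and Elovl6 held 0 of the 4 motifs. TCACNCCAC was in 0 of the members' windows. Of all 32851 promoter windows of this length, 7.15% held CACGTG, 1.24% TCACNCCAC, 37.4% CCAAT and 35.7% GGGCGG.

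Of 27 other genes of synthesis, elongation and desaturation 19 were tested, of which 11 fell, 3 rose and 5 were not called. Of all genes 32.6% fell and 32.5% rose. The list had a median log2 fold change of -0.73 against -0.00 over all genes. After removal of the trend on length and GC content 7 of the 19 fell and 2 rose, with a median of -0.25, where 3210 of 10010 genes fell in all, so that share is near the background. With upper-quartile scaling 13 fell and 1 rose, where of 10260 genes 3767 fell and 2965 rose. Without del replicate 1 or del replicate 2, 9 fell. Fads2, the desaturase gene beside Fads1 that acts before it, was at 130.5, 156 and 161 CPM in fl against 68.7, 82.0 and 65.1 CPM in del (a log2 difference of -1.06 ± 0.15, adjusted p = 0.000256). The third gene of that cluster, Fads3, averaged 6.91 CPM in fl against 3.62 CPM in del (-0.88 ± 0.25, adjusted p = 0.0117), a call lost in thinned libraries, so that all 3 of these FADS genes were called lower at full depth. Cyb5b, a cytochrome b5 gene, went from 434 ± 11.5 to 183 ± 5.11 CPM (SD, n = 3).

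The other named members of that list went different ways. Degs1, a desaturase gene of ceramide synthesis, was at 136 ± 10.1 CPM in fl against 117 ± 7.58 CPM in del (adjusted p = 0.162). Mid1ip1, whose product stimulates acetyl-CoA carboxylase, rose by 0.66 ± 0.22 on the log2 scale, a call lost with upper-quartile scaling and without fl replicate 1 or del replicate 2. Elovl7 rose by 0.55 ± 0.20, a call held in 5 of 15 settings and lost without fl replicate 1 or 2 or del replicate 1 or 2. Among genes named after their values were seen, Hacd1, a dehydratase gene of the elongation cycle, fell by 2.90 ± 0.21. Tecr and Hsd17b12, the reductase genes of that cycle, stood at -0.99 ± 0.16 and -0.42 ± 0.15, and both calls were lost with the trend removed (adjusted p = 0.0843 and 0.466), that of Hsd17b12 also without fl replicate 2 or 3 or del replicate 1 or 2. Cyb5r3, which passes electrons to cytochrome b5, rose by 1.17 ± 0.21.

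Of 12 genes that supply carbon and reducing power 10 were tested, 6 fell and 1 rose, against 32.6% and 32.5% of all genes, with a median of -0.55. Without fl replicate 1 or 2 or del replicate 2 or 3, 5 fell. Mdh1, the cytosolic malate dehydrogenase gene, went from 284 ± 12.5 to 142 ± 5.39 CPM (SD, n = 3) and Cs, the citrate synthase gene, from 149 ± 12.02 to 112 ± 10.7 CPM (SD, n = 3). The call of Cs was lost without fl replicate 1 or 2 or del replicate 2 or 3. The genes of the NADPH-forming enzymes G6pdx (log2 fold change -0.30 ± 0.14, adjusted p = 0.0831) and Pgd (0.28 ± 0.16, adjusted p = 0.161) were not called. Slc25a1, the mitochondrial citrate exporter gene that feeds ATP citrate lyase, was named after its values were seen: it stood at 69.7, 70.7 and 72.4 CPM in fl against 30.8, 22.7 and 17.8 CPM in del (a log2 difference of -1.57 ± 0.19, adjusted p = 9.68e-05). Also named after its values were seen, the acetyl-CoA synthetase gene Acss2 of the cytosol fell by 1.54 ± 0.25 on the log2 scale. Its mitochondrial counterpart Acss1 rose from 0.980 ± 0.43 to 20.8 ± 1.26 CPM (SD, n = 3) and was the 1 riser of the list. Acss1 passed the filter on low counts through the del group alone, so it could only be tested as higher.

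Of 21 regulators of lipogenic transcription 18 were tested, 6 rose, 6 fell and 6 were not called (median -0.03), shares near the 32.5% and 32.6% of all genes. Srebf1 and Srebf2, the SREBP genes, were at 37.8 ± 8.75 and 16.6 ± 5.19 CPM in fl against 33.5 ± 3.11 and 17.3 ± 4.97 CPM in del (SD, n = 3), and neither was called (adjusted p = 0.445 and 0.725). Scap, which escorts SREBPs out of the endoplasmic reticulum, rose by 0.78 ± 0.16 on the log2 scale (adjusted p = 0.0022). Insig1, which retains them there and is itself an SREBP target, fell by 0.43 ± 0.13 (adjusted p = 0.0148), a call lost in libraries thinned to the smallest total (adjusted p = 0.0668). Nr1h2, a liver X receptor gene, rose by 0.43 ± 0.16 (adjusted p = 0.0403), a call held in 6 of 15 settings (the reported fit and 14 alternatives) and lost without fl replicate 1 or 3 or del replicate 1 or 2. Nr1h3, the other liver X receptor gene, averaged 0.523 CPM in fl against 0.406 CPM in del, and Mlxipl, which encodes ChREBP, had 1 count in all.

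Of the other named regulators, Sp1 went from 84.8 ± 5.61 to 171 ± 37.9 CPM (SD, n = 3), a call lost with the length and GC trend removed (log2 fold change 0.09, adjusted p = 0.706), and Nfyb and Usf2 were not called, but with that trend removed Usf2 was called at 0.79 (adjusted p = 0.0114). Named after their values were seen, Ppargc1b, a coactivator gene of SREBP, rose by 2.01 ± 0.18 and Lpin1, a phosphatidate phosphatase gene with a role in SREBP control, fell by 2.42 ± 0.19 on the log2 scale.

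Of 18 genes of fatty acid uptake and activation 12 were tested, 5 rose and 3 fell (median 0.38), so that 8 of 12 were called against 65.1% of all genes. With the length and GC trend removed 2 rose and 2 fell, with a median of -0.05, where 58.4% of all genes were called. Fabp5, a fatty acid binding protein gene, went from 903 ± 37.2 to 432 ± 95.1 CPM and Dbi, which encodes the acyl-CoA binding protein, from 1391 ± 44.2 to 729 ± 33.4 CPM (SD, n = 3), the Dbi call being lost with the trend removed (log2 fold change -0.12, adjusted p = 0.438). The acyl-CoA synthetase gene Acsl5 fell by 0.96 ± 0.15 and Acsl3 rose by 0.87 ± 0.29 on the log2 scale, the latter a call held in 9 of 15 settings and lost without fl replicate 2 or 3 or del replicate 2 or 3. Cd36, a fatty acid translocase gene also expressed by myeloid cells, was named after its values were seen. It rose from 1.04 ± 0.40 to 45.1 ± 6.43 CPM (SD, n = 3). Cd36 passed the filter on low counts through the del group alone, so it could only be tested as higher. The myeloid markers summed to 302.5 to 309.9 CPM in fl and 2536 to 3338 CPM in del, with 6 of 9 tested higher and 3 lower. Some of the 6, such as Lyz2 and Cybb, likewise could only be tested as higher. Whether the rise of Cd36 came from such cells was not tested.

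Of 34 glycerolipid genes 29 were tested, 8 fell and 4 rose (median -0.21), so that 12 of 29 were called against 65.1% of all genes. With the length and GC trend removed 13 fell and 2 rose, where of 10010 genes 3210 fell and 2639 rose (58.4% called). Agpat5, an acyltransferase gene, fell by 0.42 ± 0.16 on the log2 scale, a call held in 7 of 15 settings and lost without any 1 fl library or without del replicate 1 or 3. With the trend removed it stood at -1.58 (adjusted p = 7.15e-05). Etnk1, an ethanolamine kinase gene, rose by 0.55 ± 0.15, but stood at -0.31 (adjusted p = 0.14) with the trend removed. Pcyt2 and Gpat4 were not called, but with the trend removed Gpat4 was called at -0.87 (adjusted p = 0.00118), and Pcyt2 was called without del replicate 3. Dgat2, which makes triacylglycerol and was named after its values were seen, had 175 counts in fl and 1 in del, a ratio of 68.7 in favour of fl (95% counting interval 12.2 to 2728). Dgat2 passed the filter on low counts through the fl group alone, so it could only be tested as lower.

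**Figure D4:**
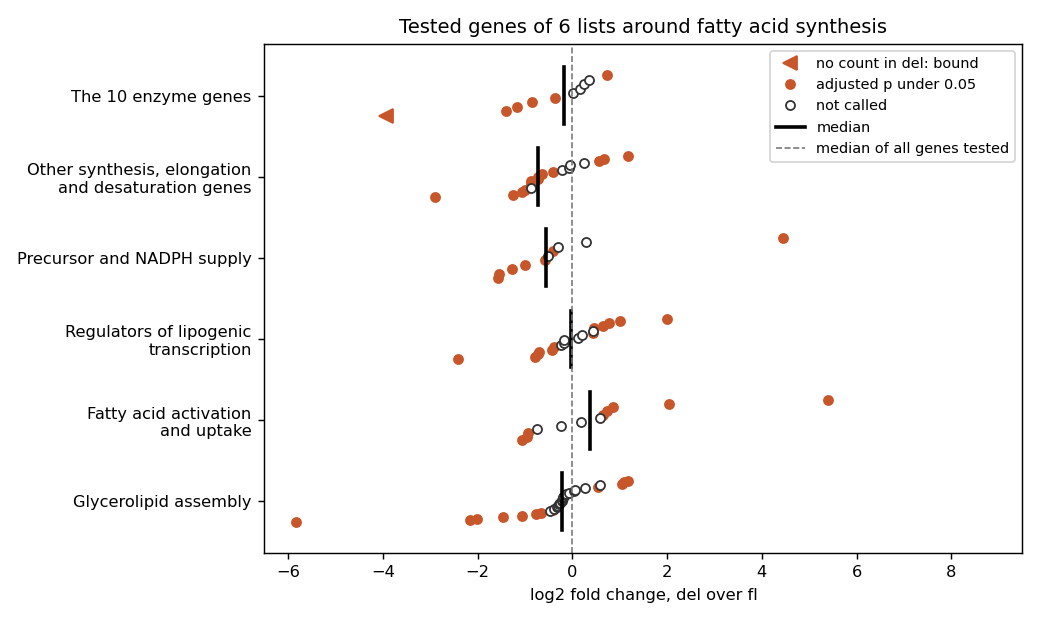
Log2 fold change of del over fl (horizontal axis) for the tested genes of 6 lists, filled where the adjusted p was under 0.05 and open otherwise, with the median of each list as a black bar and that of all genes as a dashed line. The triangle is the bound of Acacb, which had 0 counts in del, and the point farthest to the left is Dgat2, with 1 count in del.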

How the data were processed

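Per the labels' protocols, RNA was primed with barcoded oligo-dT, pooled and made into strand-specific 3' libraries. Per the submitters' processing notes, STAR, HTSeq and the mm10 build were used, with neither version nor option named: those were not given in the sources used here. Raw values were deposited: the table holds raw counts per gene for 6 libraries, with no normalization by the authors. Of 24052 gene numbers 23969 matched the RefSeq gene table (GRCm38.p6). Rows with no symbol held 0.207% to 1.04% of a library's counts.

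Counts were filtered with filterByExpr, scaled with TMM factors and tested with edgeR 4.0.16 (R 4.3.3, robust glmQLFit and glmQLFTest, group as the only term). The SE was derived from the F statistic. DESeq2 1.42.0 was an alternative, as were 2 other scalings, 2 filters, thinning to the smallest library, the replicate number as a block, removal of each library's loess trend on transcript length and GC content, and leaving out each library. Tested on simulated data, the procedure recovered few of the smallest changes and made false calls somewhat above the nominal rate. Far fewer genes were changed there than were called here, so those rates do not carry over to this comparison. A gene without a call is not shown to be unchanged. Transcripts and 3' untranslated regions of at least 50 bases came from GENCODE M21 (GRCm38). The smallest total, 2121796 counts, limits precision for genes at a few CPM. Intervals and floors cover counting error only and not variation between libraries. Because PCR copies are not independent molecules, even the counting error may be understated.

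Members and lists were chosen with earlier results of these data known. Named were all 10 members, the 4 tested genes of highest mean CPM in each of 5 other lists, and 12 regulators and paralogs; others were named after their values were seen.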

Additional observations from a re-analysis of the deposited data

How the results depend on the processing

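The count of the 10 genes called was 6, and 5 or 6 under each of the 14 alternatives (5 to 6 when 1 library was left out). Over all genes 6676 were called, 5488 to 7286 under the alternatives and 6049 to 6479 when 1 library was left out. Upper-quartile scaling moved the median log2 fold change of all genes from -0.00 to -0.13. Directions turned for Acly, Acaca, Fasn, Elovl1 and Elovl6, and the cause was not tested. Acly, at 0.01, went to -0.12 under upper-quartile scaling, -0.038 without a count filter, -0.026 in thinned libraries, -0.33 with the length and GC trend removed, and with 1 library left out ranged from -0.14 (without fl replicate 1) to 0.103 (without fl replicate 2), with -0.09 without del replicate 3. With that trend removed Acaca stood at -0.84 (adjusted p = 0.00137), Fasn at -0.13, Elovl1 at 0.024 and Elovl6 at -0.36, so that Acaca was called lower there and Fasn and Elovl1 were not called. The filter at 10 CPM in 3 libraries left Acacb out. The Scd1 to Scd2 difference of -0.31 was -0.43 to -0.09 when 1 library was left out, smallest without del replicate 3. Libraries of the same replicate number did not deviate together (correlations of 0.08, -0.04 and -0.02). With that number as a block 6510 genes and 5 of the 10 were called, with Elovl1 lost at adjusted p = 0.056, and the Scd1 to Scd2 difference stayed at -0.31 (exact sign-flip test, p = 0.25, the smallest that 3 pairs can give). At 0 counts in del, the depth of that group sets how low Acacb can be shown to be.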
